A study of Rattus norvegicus with 44 samples.

Results

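The 9 genes described are enzymes of cholesterol synthesis: Hmgcs1, Mvd, Idi1, Fdps, Fdft1, Sqle, Lss, Nsdhl and Sc5d. They were chosen by name as steps of the pathway, and a gene was measured where a probe set of the array carries it as its single gene symbol. Of the 9 enzymes, 7 were measured, each by 1 probe set, out of 14324 genes with such a probe set. Hmgcs1 and Fdps had none in the annotation used here, so neither has a value. Expression was measured in whole ovaries of 4-day-old female Sprague-Dawley rats that had spent 2 days (48 h) in organ culture, with RNA of the 2 or 3 ovaries in a well combined into a sample. At 50 ng/ml each, 8 growth factors were added alone, each to 3 samples: human AMH, BMP4 and FGF7, rat FGF2, GDNF, LIF and PDGFab, and mouse KITLG. They were set against 14 untreated cultured controls, which all 8 comparisons share. A second set of arrays held 3 samples with human CTGF at 50 ng/ml and 3 untreated controls of their own, and was compared only within itself. All groups, controls included, were cultured ovaries, so that no fresh ovary enters any comparison. On a culture day some of the growth factors were run beside untreated wells, but the day of each sample is not given in the sources used here, so that growth factor and culture day cannot be told apart.

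Cholesterol is built from acetyl-CoA in a long chain of reactions in the cytosol and endoplasmic reticulum. The early steps make mevalonate and turn it into isoprenoid units, the middle steps join these into squalene and close its rings to lanosterol, and the late steps trim lanosterol to cholesterol. The genes share a control: when sterol in the endoplasmic reticulum falls, Scap escorts the transcription factor precursor SREBP-2, encoded by Srebf2, away from its retention proteins Insig1 and Insig2, and the processed factor switches on the enzymes of the whole chain. In the ovary cholesterol is the material of steroid hormones. In mice, the oocyte makes little cholesterol itself and receives it from the surrounding somatic cells.

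The tissue label was checked against defining markers, as a rough guide only, since probes of different genes differ in brightness. The oocyte genes Zp3, Gdf9 and Ddx4 (3 of 6 listed were measured) had mean levels of 11.31, 9.93 and 8.56, and the pregranulosa genes Wt1, Amhr2 and Lgr5 (3 of 5) 10.12, 9.28 and 6.57. The genes of steroid hormone synthesis Star, Cyp17a1 and Cyp11a1 (3 of 4) had 6.95, 5.14 and 4.43, and the 4 fat cell genes 4.21 to 4.76. Array medians ran from 5.93 to 6.01 on the log2 scale in the 38 arrays of the 8 growth factors and from 6.29 to 6.35 in the 6 arrays of the CTGF set, and the correlation between arrays was at least 0.964. In whole ovaries, fewer cells of a type and less RNA per cell cannot be told apart. Levels below are log2 values of probe sets, and they compare samples within a gene, never 1 gene with another.

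The promoters of the measured enzymes are shown because several of the genes moved together from array to array, as described further on, and because these genes are known targets of SREBP-2, which works beside the factor NF-Y at CCAAT boxes. RefSeq promoters of the rat build GRCr8, covering 250 bases before the annotated start to 50 bases from it, were held for 7 of the 9 enzymes, among them 5 of the 7 measured ones. Promoters of Fdft1 and Sqle were not used here. The windows are chr19:67414925-67415224 for Mvd, chr17:66547475-66547774 for Idi1, chr20:12118181-12118480 for Lss and chr8:51538228-51538527 for Sc5d, all on the minus strand, and chrX:155817110-155817409 on the plus strand for Nsdhl. Each is written 5′ to 3′ along the gene, with every CCAAT box in capitals, whether read as CCAAT or, on the opposite strand, as ATTGG.
Mvd: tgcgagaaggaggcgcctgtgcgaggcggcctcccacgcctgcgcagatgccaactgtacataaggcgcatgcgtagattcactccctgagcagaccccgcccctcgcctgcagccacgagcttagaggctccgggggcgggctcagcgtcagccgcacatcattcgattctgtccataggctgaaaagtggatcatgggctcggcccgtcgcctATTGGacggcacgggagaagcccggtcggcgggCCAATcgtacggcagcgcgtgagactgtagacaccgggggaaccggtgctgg
Idi1: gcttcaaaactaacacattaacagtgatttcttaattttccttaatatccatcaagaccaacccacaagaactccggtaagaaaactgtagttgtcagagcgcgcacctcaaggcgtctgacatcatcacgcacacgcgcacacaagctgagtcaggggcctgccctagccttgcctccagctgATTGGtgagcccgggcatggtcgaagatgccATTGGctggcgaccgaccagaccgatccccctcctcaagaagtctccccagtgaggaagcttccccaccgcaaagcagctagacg
Lss: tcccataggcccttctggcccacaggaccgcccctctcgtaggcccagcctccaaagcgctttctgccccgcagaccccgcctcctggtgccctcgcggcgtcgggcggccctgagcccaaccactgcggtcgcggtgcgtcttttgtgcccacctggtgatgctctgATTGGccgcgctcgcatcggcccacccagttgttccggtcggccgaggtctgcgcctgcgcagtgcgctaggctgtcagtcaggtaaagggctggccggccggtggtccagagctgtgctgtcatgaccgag
Nsdhl: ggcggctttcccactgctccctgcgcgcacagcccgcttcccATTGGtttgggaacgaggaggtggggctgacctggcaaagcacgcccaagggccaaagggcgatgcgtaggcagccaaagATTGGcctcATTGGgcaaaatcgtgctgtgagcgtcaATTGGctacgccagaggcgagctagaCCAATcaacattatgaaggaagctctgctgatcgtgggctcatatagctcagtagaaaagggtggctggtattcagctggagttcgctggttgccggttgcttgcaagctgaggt
Sc5d: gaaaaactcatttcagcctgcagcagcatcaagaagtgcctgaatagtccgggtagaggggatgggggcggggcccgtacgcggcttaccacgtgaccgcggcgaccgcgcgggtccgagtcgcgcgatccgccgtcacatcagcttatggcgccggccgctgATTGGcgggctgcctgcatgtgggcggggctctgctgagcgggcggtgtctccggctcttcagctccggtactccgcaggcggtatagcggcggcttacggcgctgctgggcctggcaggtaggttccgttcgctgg

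A CCAAT box on either strand was found in 7 of the 7 enzyme promoters, against 37.5% of 33469 rat promoters of the same length. Nsdhl held 5 of them, Mvd, Idi1, Hmgcs1 and Fdps 2 each, and Lss and Sc5d 1 each. At least 2 were found in 5 of the 7 enzyme promoters and in 11.2% of all promoters. A GC box (GGGCGG, either strand, overlapping matches counted) was found in 5 of the 7, against 33.1% of all, with none in Idi1 and Nsdhl. The classical sterol element TCACNCCAC, either strand, was found in 0 of the 7 and in 1.12% of all promoters. These are matches of letters in a short window and say nothing of binding.

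**Figure D1:**
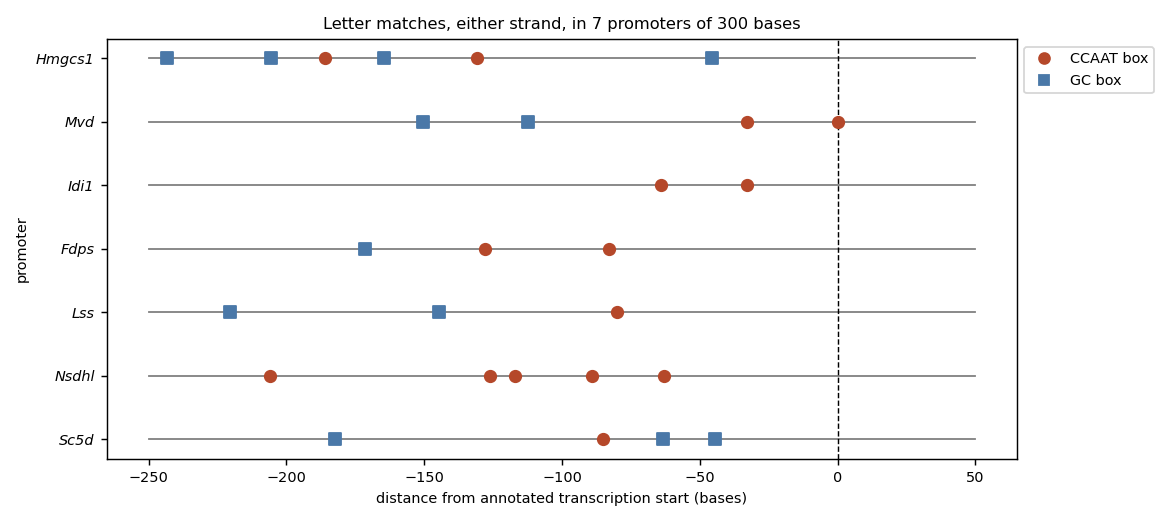
CCAAT boxes (red circles) and GC boxes (blue squares), on either strand, in the 7 enzyme promoters, plotted by distance in bases from the annotated transcription start (0 is the first transcribed base). Nsdhl carries 5 CCAAT boxes and no GC box, and Idi1 carries 2 CCAAT boxes and no GC box.

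No enzyme changed in any of the 9 comparisons by the test used here, limma with Benjamini-Hochberg adjustment over all 27342 probe sets and an adjusted p under 0.05. In the comparisons themselves that test called 0% of all probe sets with AMH, 0.274% with BMP4, 0.94% with FGF2, 0.0805% with FGF7, 1.89% with GDNF, 0.0439% with KITLG, 0.267% with LIF, 0.234% with PDGFab and 0% with CTGF. The share with GDNF depended on dim probe sets. There 517 were called in all, and 0 when probe sets below the median level were left out. The 7 enzymes all lay above that level. Of the 63 tests of an enzyme, the lowest adjusted p was 0.0862, for Mvd with FGF2. A test across all 8 growth factors at once (moderated F) called 0 of the 7 enzymes and 2.18% of all probe sets, and its lowest adjusted p among the enzymes was 0.125, for Lss. At an unadjusted p under 0.05, 1 enzyme passed with AMH, FGF2, FGF7 and KITLG each, 4 passed with PDGFab, and 0 passed with BMP4, GDNF, LIF and CTGF. An absence of calls at 3 samples a group leaves room for moderate differences, and the 95% intervals below show how much.

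**Figure D2:**
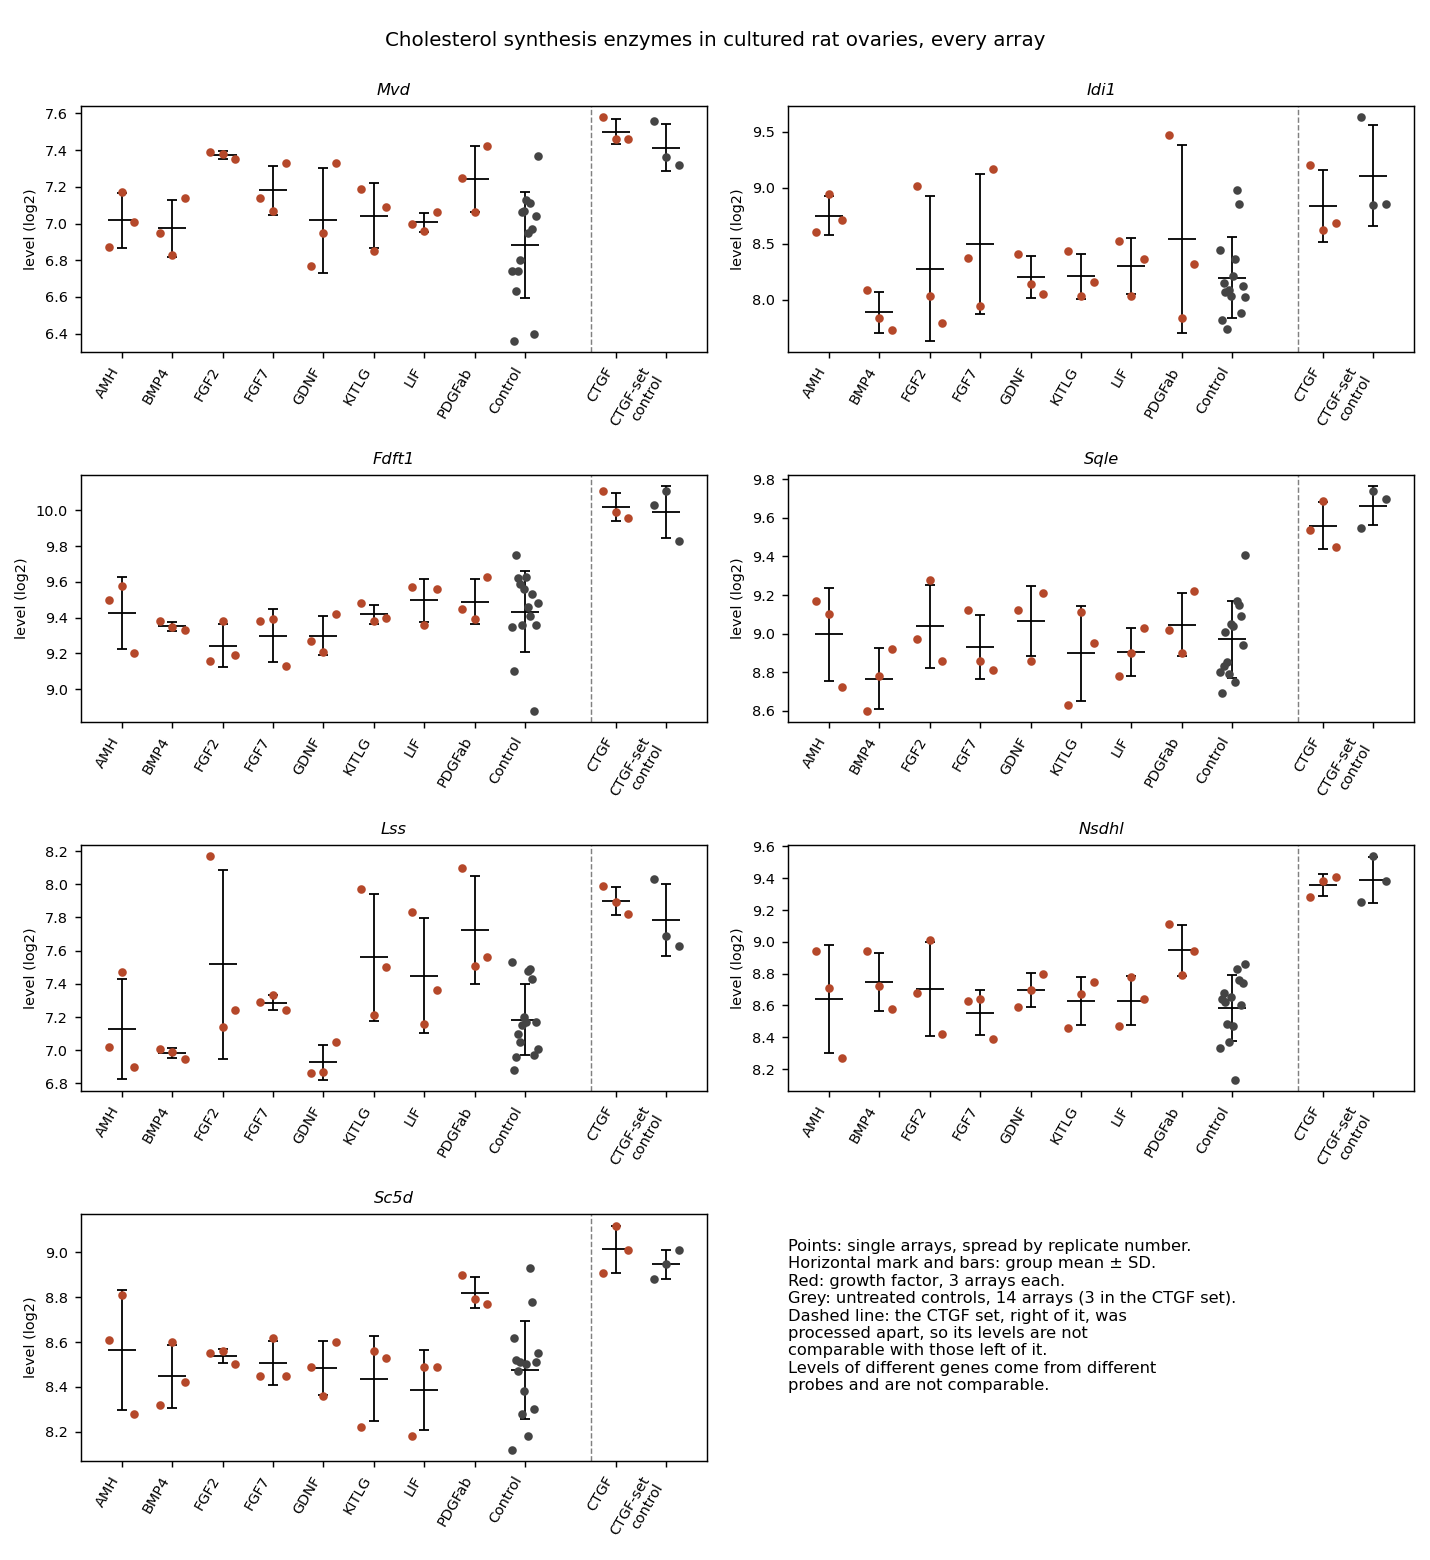
Level (log2, vertical axis) of the 7 enzymes in every array, 1 panel a gene, with growth factor arrays in red and untreated controls in grey. The horizontal mark and bars are the group mean and SD. For Lss 2 of the 3 PDGFab arrays (7.51 to 8.10) lie above the highest control (7.53), and the control arrays alone spread over 0.65 to 1.24 log2 units depending on the gene.

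Mvd makes isopentenyl diphosphate, the unit of all isoprenoids, from diphosphomevalonate. Its mean was higher than that of the controls with every one of the 8 growth factors that share them, by 0.09 to 0.49. These differences are not independent, since all use the control mean of 6.88, which lay below the control median of 6.96. The means of Mvd with BMP4, LIF, AMH and GDNF were 6.97 to 7.02. With FGF2 its level was 7.39, 7.38 and 7.35, against 6.36 to 7.37 (median 6.96) in the 14 controls. The FGF2 arrays were close to each other and lay at the top of the control range, with 2 of 3 above the highest control. The difference was 0.49 (SE 0.14, 95% interval 0.20 to 0.78), with an adjusted p of 0.0862 (limma). The exact two-sided permutation p was 0.00588, over 680 splits of 3 against 14 samples. Leaving out controls 12, 13 and 14 brought the same difference, 0.50, to an adjusted p of 0.0447. With PDGFab the levels were 7.25, 7.06 and 7.42, with 1 array above every control, a difference of 0.36 (SE 0.14, adjusted p = 0.338, limma). With FGF7 the levels were 7.14, 7.07 and 7.33 against the same controls, a difference of 0.30 (SE 0.14, adjusted p = 0.636, limma). The FGF7 arrays all lay above the control mean of 6.88 and inside the control range. With KITLG, AMH, GDNF and LIF the differences were 0.16, 0.14, 0.14 and 0.13 (SE 0.14 each, adjusted p = 0.831, 1.0, 0.66 and 0.895, limma). The value with GDNF rested on array 3 (7.33, with 6.77 and 6.95 in the others), and was -0.02 without it. Leaving out single arrays gave 0.06 to 0.21 with AMH and 0.09 to 0.26 with KITLG.

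Idi1 turns isopentenyl diphosphate into its reactive isomer, the starter of chain building. Among the 7 enzymes it was the one that varied most between untreated samples: the 14 controls spread over 7.74 to 8.98 (median 8.10), with controls 10 and 11 at 8.98 and 8.85 and the others at or below 8.44. With AMH its level was 8.60, 8.94 and 8.71. All 3 arrays lay in the upper part of the control range and none above it. The difference was 0.55 (SE 0.25, 95% interval 0.04 to 1.07, adjusted p = 0.975, limma), with an exact two-sided permutation p of 0.0353. With BMP4 the levels were 8.09, 7.84 and 7.73, all below the control mean of 8.20, a difference of -0.31 (SE 0.25, adjusted p = 0.814, limma). With FGF7 the difference was 0.30 (SE 0.25, adjusted p = 0.839, limma), which rested on array 3 at 9.17, with 8.37 and 7.94 in the other arrays, and was -0.04 without it. With PDGFab 1 array stood at 9.47, the highest Idi1 value of the 38, and the others at 7.84 and 8.32.

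Fdft1, squalene synthase, takes the first step that commits the pathway to sterols, and Sqle then adds oxygen to squalene. These were the steadiest of the 7 across treatments. The group means of Fdft1 ran from 9.24 with FGF2 to 9.49 with LIF and PDGFab, against 9.43 in the controls, and no 95% interval of its 8 differences left out 0. Its mean with FGF2 was 0.19 below the controls (SE 0.11, adjusted p = 0.529, limma), with all 3 FGF2 arrays below the control mean and inside the control range of 8.88 to 9.75. The group means of Sqle ran from 8.77 with BMP4 to 9.06 with GDNF, against 8.97 in the controls. Sqle with BMP4 measured 8.60, 8.78 and 8.92, against 8.69 to 9.41 (median 8.97) in the controls, with 1 array below every control, a difference of -0.20 (SE 0.12, adjusted p = 0.688, limma). Neighbours in the order of these means differed by less than the SD of the controls, which was 0.23 for Fdft1 and 0.20 for Sqle.

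Lss folds oxidised squalene into lanosterol, the first sterol. It gave the widest spread of group means after Idi1, from 6.93 with GDNF to 7.72 with PDGFab, against 7.18 ± 0.22 (SD, n = 14) in the controls. With PDGFab its levels were 8.10, 7.51 and 7.56, against 6.88 to 7.53 (median 7.16) in the controls. Of the 3 PDGFab arrays, 2 lay above every control. The difference was 0.54 (SE 0.17, 95% interval 0.19 to 0.88, adjusted p = 0.183, limma), with an exact two-sided permutation p of 0.00588. It was 0.35 without array 1 (adjusted p = 0.782), and with array quality weights 0.43 with an adjusted p of 0.0325. With KITLG the levels were 7.97, 7.21 and 7.50, a difference of 0.37 (SE 0.17, adjusted p = 0.521, limma), all above the control mean, which was 0.17 without array 1 and 0.55 without array 2. With FGF2 they were 8.17, 7.14 and 7.24, a difference of 0.34 (SE 0.17, adjusted p = 0.426, limma) that was 0.01 without array 1. With LIF they were 7.83, 7.16 and 7.36, a difference of 0.26 (SE 0.17, adjusted p = 0.811, limma), which was 0.07 without array 1. In KITLG, FGF2, LIF and PDGFab ovaries alike, array 1 was the high one. Over all probe sets the deviations of array 1 of FGF2, LIF and KITLG correlated best with those of control 1 (r = 0.74, 0.694 and 0.615), which had the highest Lss of the controls. Array 1 of PDGFab had r = 0.34 with control 1 and correlated best with control 2, which had the lowest Lss of the controls. The part of these likenesses in the Lss values was not tested. With GDNF the levels were 6.86, 6.87 and 7.05, and 2 of the 3 lay below the lowest control, a difference of -0.26 (SE 0.17, 95% interval -0.60 to 0.09, adjusted p = 0.456, limma) with an exact two-sided permutation p of 0.0353.

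Nsdhl removes a carbon from the sterol ring with the help of its partner enzymes, and Sc5d puts in a late double bond. With PDGFab both were higher in every array than the control mean. Nsdhl measured 9.11, 8.79 and 8.94, against 8.13 to 8.86 (median 8.63) in the controls, and 2 of the 3 PDGFab arrays lay above every control. The difference was 0.37 (SE 0.13, 95% interval 0.11 to 0.63, adjusted p = 0.255, limma), with an exact two-sided permutation p of 0.00882. Sc5d measured 8.90, 8.79 and 8.77, against 8.12 to 8.93 (median 8.51) in the controls. The 3 arrays were close to each other and near the top of the control range, and the difference was 0.35 (SE 0.12, 95% interval 0.11 to 0.58, adjusted p = 0.226, limma), with an exact two-sided permutation p of 0.0235. With array quality weights Sc5d had a difference of 0.31 and an adjusted p of 0.044. With the other 7 growth factors the differences of Nsdhl lay between -0.03 and 0.17 and those of Sc5d between -0.09 and 0.09. The mean with PDGFab was the highest of the 9 group means for Lss, Nsdhl and Sc5d.

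**Figure D3:**
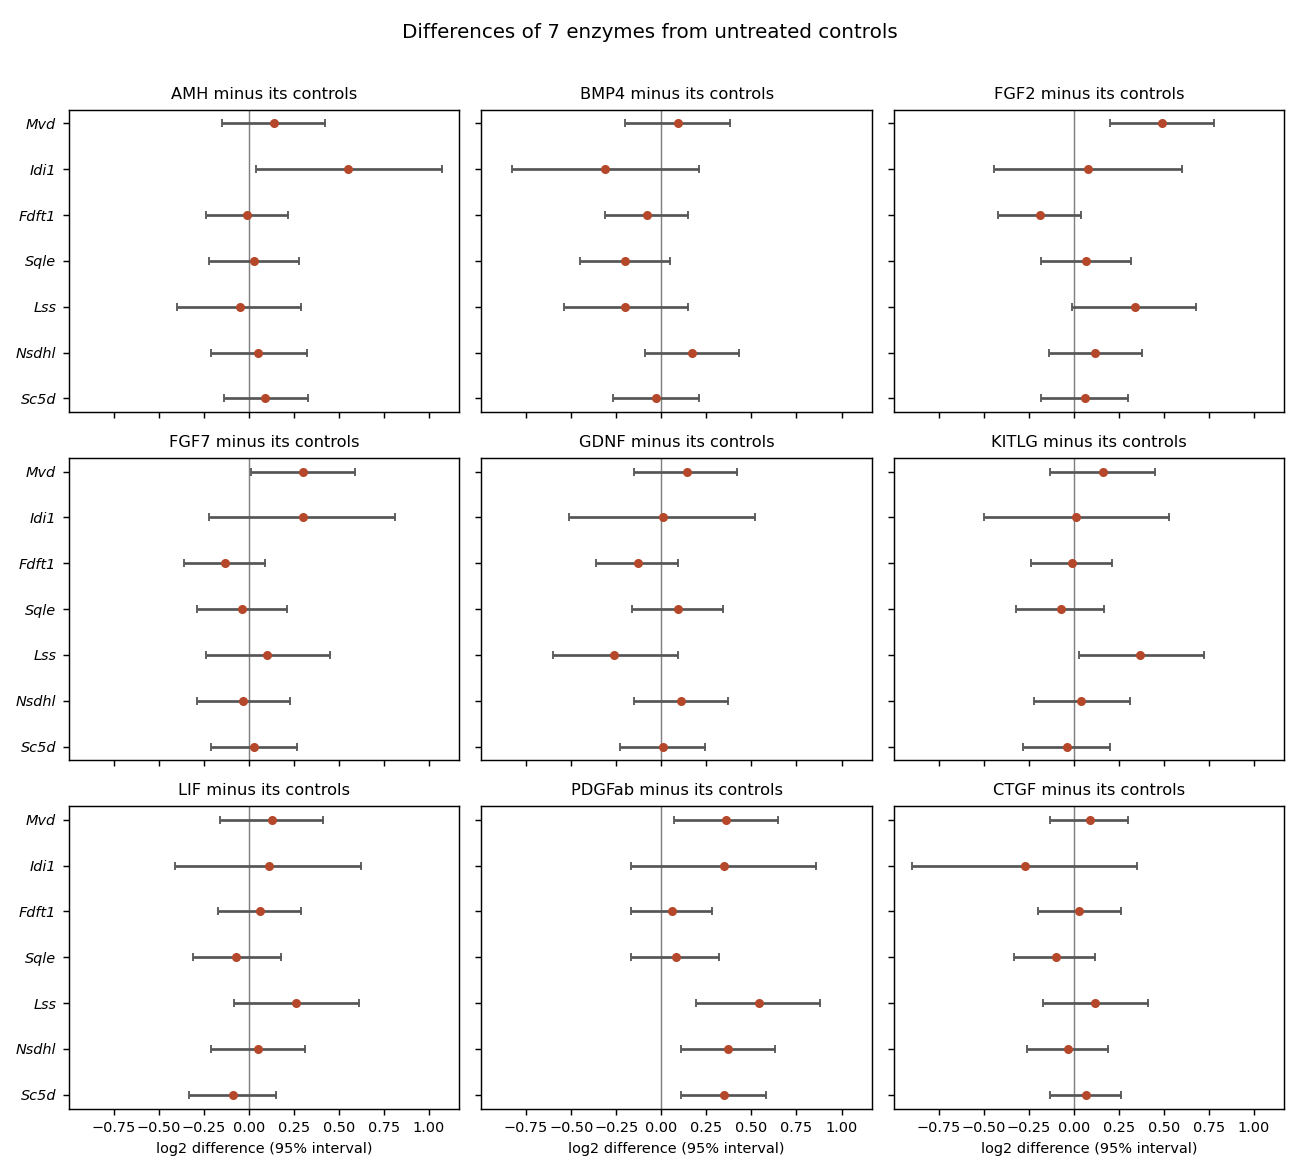
Log2 difference of each enzyme from its untreated controls (points) with the 95% interval of limma (bars), 1 panel a comparison. With PDGFab all 7 points lie right of 0 and the intervals of Mvd, Lss, Nsdhl and Sc5d leave out 0 before adjustment. Elsewhere the intervals leave out 0 only for Idi1 with AMH, Mvd with FGF2 and FGF7, and Lss with KITLG.

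With PDGFab, a mitogen of mesenchymal cells, the 7 enzymes lay higher than in the controls without exception, by 0.06 (Fdft1) to 0.54 (Lss), with a median of 0.35 against -0.01 over all probe sets, of which 48.1% were higher. The median of the 7 in the single PDGFab arrays was 0.42, 0.18 and 0.30 above the control mean, and in single control arrays it ran from -0.30 to 0.25. The remaining pathway enzymes measured, 8 of 11 listed, were also all higher, so that 15 of 15 lay above the controls, with a median of 0.35. Without PDGFab array 1 this count was 12, and without array 3 it was 13. Among the 8, Acat2, which joins acetyl-CoA molecules at the head of the pathway, measured 8.96, 8.31 and 8.78, against 7.86 to 8.54 (median 8.14) in the controls, a difference of 0.57 (SE 0.13, adjusted p = 0.0532, limma). It had an adjusted p of 0.469 without array 1 and of 0.0222 without array 2. Cyp51, which removes a methyl group from lanosterol, had a difference of 0.50 (SE 0.21, adjusted p = 0.406, limma) that spread widely, at 9.96, 8.57 and 9.13. Msmo1, which works beside it, had 0.26 (adjusted p = 0.664, limma), and Dhcr7, which makes the final product, had 0.07 (adjusted p = 0.935, limma). Because the pathway genes share regulators and each array counts once, 15 genes higher is not 15 independent observations. The shift was not limited to this pathway. Of the fatty acid synthesis genes, 8 measured of 9 listed, 7 were higher with PDGFab, with a median of 0.32. The remaining lists of sterol-related genes described below had medians from -0.03 to 0.17 there.

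Markers of other cells were read in the same PDGFab samples. The 5 of 5 listed stroma markers that were measured had a mean level of 10.49 to 10.88 in PDGFab arrays, against 10.13 to 10.54 in control arrays. The 4 of 4 macrophage markers had 6.90 to 7.03, against 5.87 to 7.26 in control arrays, and the 3 of 6 oocyte markers had 9.55 to 10.15, against 8.82 to 10.32. Within the stroma list, Col1a1 differed by 0.48, Pdgfra, a receptor for PDGF, by 0.44 (SE 0.12, adjusted p = 0.0999, limma), and Nr2f2 by 0.35, while Tcf21 and Dcn differed by -0.04 and -0.05. Within the macrophage list, Cd163 differed by 1.01 (SE 0.24, adjusted p = 0.0538, limma), C1qa by 0.31, Cd68 by 0.03 and Csf1r by -0.23. Their part in the enzyme values was not tested. Over all 9 comparisons 0 of 27 measured cell type markers (36 listed) passed the adjusted threshold.

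The study judged a gene by looser criteria, here taken as an unadjusted limma p of 0.05 or less, mean linear levels in a ratio of 1.2 or more (0.83 or less where lower), and at least 10 linear units between those means. By these, 4 of the 7 enzymes met them with PDGFab (Lss, Nsdhl, Mvd and Sc5d, at ratios of 1.46, 1.28, 1.27 and 1.26), where 5.33% of all probe sets did. The count was 2 without PDGFab array 1. With AMH 1 of 7 met them (Idi1, ratio 1.43, background 2.15%), with FGF2 1 of 7 (Mvd, 1.38, background 6.79%), with FGF7 1 of 7 (Mvd, 1.21, background 4.16%) and with KITLG 1 of 7 (Lss, 1.31, background 4.44%). With BMP4, GDNF, LIF and CTGF 0 of 7 met them, where 4.48%, 5.99%, 3.82% and 0.761% of all probe sets did. All enzymes that met the criteria were higher in the treated ovaries. In each of the 9 comparisons more probe sets met them here than the study lists, so these backgrounds are not the study's own. The study's lists hold Idi1 with AMH and Mvd with FGF2, both higher, but not Mvd with FGF7. The single counts were not stable to leaving out 1 array: the count was 0 with AMH (without array 2 or 3), with FGF7 (without array 1 or 3) and with KITLG (without array 1 or 3), while it was 2 with FGF2 (without array 2 or 3) and 1 with LIF (without array 2).

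Medians over the 7 enzymes in the other comparisons were near that of all probe sets. They were 0.05 with AMH, 0.08 with FGF2, 0.03 with FGF7, 0.01 with GDNF and KITLG, 0.06 with LIF and 0.03 with CTGF, where the medians of all probe sets lay between -0.03 and 0.04. With BMP4 the median was -0.08, 5 of the 7 enzymes were lower than in the controls and 2 higher. Below the threshold, 3 genes outside the 7 gave larger differences there: Cyp51 at -0.59 (adjusted p = 0.322, limma), Msmo1 at -0.44 (adjusted p = 0.369) and Insig1 at -0.42 (adjusted p = 0.266). For Cyp51 the BMP4 arrays stood at 8.27 and lower, against 8.18 to 9.20 (median 8.63) in the controls, and 2 of the 3 lay below every control.

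The genes that sense sterol did not pass the threshold either, with 0 calls among the 6 measured of 7 listed in all 9 comparisons. Srebf2 had its largest difference with KITLG, at 0.46 (SE 0.20, adjusted p = 0.517, limma), and measured 8.73, 8.26 and 8.36 there, against 7.48 to 8.62 (median 7.95) in the controls. Scap was 0.31 higher with KITLG (SE 0.13, adjusted p = 0.483, limma), and Insig2 had a difference of -0.29 there (adjusted p = 0.727). Lists of sterol uptake and transport genes (9 measured), ester formation (4), other uses of mevalonate products (5), fatty acid synthesis (8) and the first steps to steroid hormones (4) had 0 calls in all 9 comparisons. Of the 5 genes of sterol export 1 passed, with FGF2, where 0.94% of all probe sets did. It was the 1 call of a listed gene outside the 7 in all 9 comparisons. Apoe, the lipid carrier that somatic cells and macrophages secrete, rose with FGF2 to 11.91, 11.83 and 11.92, against 11.26 to 11.79 (median 11.59) in the controls, a difference of 0.31 (SE 0.08, adjusted p = 0.049, limma). All 3 arrays lay above every control. The call was lost without any of the FGF2 arrays (adjusted p = 0.0654 to 0.273) and in 9 of 12 alternatives in all, over which the adjusted p ran from 0.0404 to 0.273.

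CTGF, a matricellular growth factor, was compared with 3 controls of its own. The largest difference was that of Idi1, which measured 9.20, 8.62 and 8.68 in CTGF ovaries, against 9.63, 8.84 and 8.85 in their controls. Array 1 was the high one on both sides. The difference was -0.27 (SE 0.26, 95% interval -0.90 to 0.35, adjusted p = 1.0, limma), and 3 against 3 samples cannot give an exact p below 0.1. Between arrays of the same number it was -0.43, -0.22 and -0.17, and with the number as a block the adjusted p was 0.4. With 1 array left out and its same-numbered partner kept, the difference was -0.01 without control 1 and -0.46 without CTGF array 1. The numbers pair these samples, so such values mix the treatment with the difference between pairs. Lss measured 7.99, 7.89 and 7.82 against 8.03, 7.69 and 7.63, a difference of 0.12 (SE 0.12, adjusted p = 1.0, limma). The remaining 5 enzymes differed by -0.10 to 0.09.

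Growth factors were also set against each other in the same fit, 28 pairs and 196 tests of an enzyme, each adjusted over all probe sets of its pair and not over the pairs. The test was passed by 1 of them. Lss was lower with GDNF (6.86, 6.87 and 7.05) than with PDGFab (8.10, 7.51 and 7.56), the arrays did not overlap, and the difference was -0.79 (SE 0.22, adjusted p = 0.0422, limma), where 2.53% of all probe sets passed. The exact two-sided permutation p was 0.1, the smallest that 3 against 3 samples can give. The call was lost when any 1 of the 6 arrays was left out (adjusted p = 0.0612 to 0.199), and under repeated quantile normalization (-0.72, adjusted p = 0.0847). For GDNF the labels list more samples than the study's text, and which array accounts for that is not known. In the same contrast Sc5d differed by -0.34 (adjusted p = 0.207), Idi1 by -0.34 (adjusted p = 0.599) and Sqle by 0.02 (adjusted p = 0.972).

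Some of the enzymes moved together from sample to sample. Deviations of each array from its group mean were correlated across the 38 arrays, as a description with no p, since the pairs were looked at after their values were known and the arrays share culture days that are not given. Over the 21 pairs of enzymes, Pearson's r had a median of 0.21 and ran from -0.15 to 0.72. Idi1 and Lss made the closest pair (r = 0.72, Spearman's rho = 0.69, and r = 0.68 without the 2 arrays farthest from the median of Idi1). Nsdhl and Sc5d followed (r = 0.66, rho = 0.60, and 0.56 without 2), then Sqle and Nsdhl (r = 0.62, rho = 0.57, and 0.64 without 2). Between Lss and Nsdhl r was -0.12, and between Idi1 and Nsdhl 0.07, but Idi1 and Nsdhl had r = 0.76 within the 9 arrays where Lss lay over 0.2 above its group mean. In the 6 arrays of the CTGF set r was -0.78 for Lss and Nsdhl (0.11 without the 2 farthest) and -0.85 for Idi1 and Nsdhl (-0.23 without 2).

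**Figure D4:**
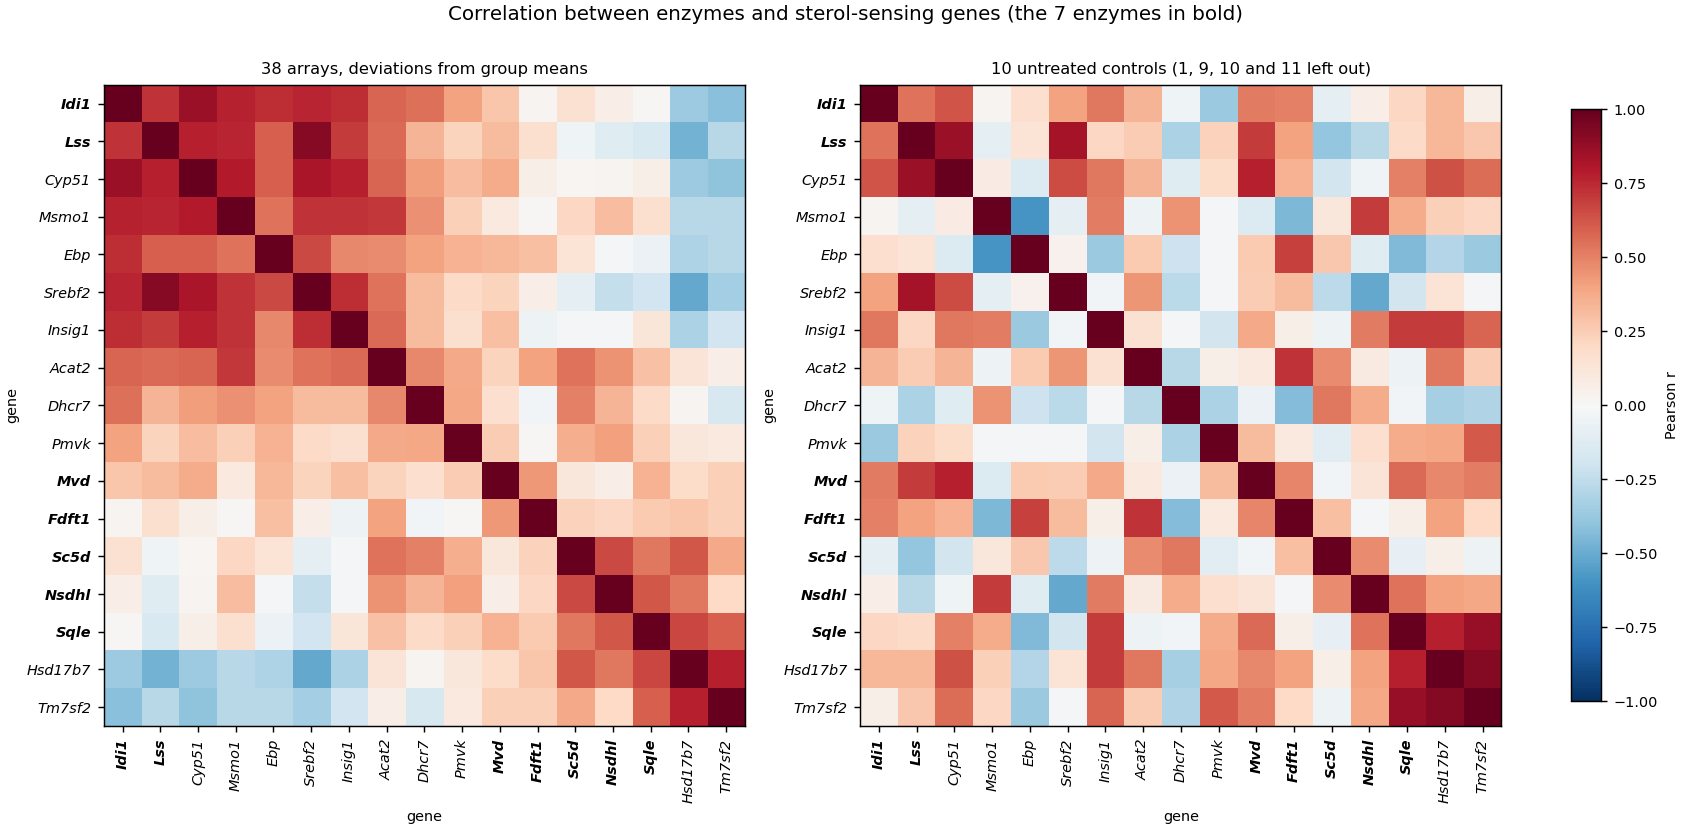
Pearson's r (colour, from -1 to 1) between deviations of 17 genes of the pathway and of sterol sensing, the 7 enzymes in bold, over 38 arrays (left) and over 10 untreated controls (right, controls 1, 9, 10 and 11 left out). Over the 38 arrays Idi1 and Lss stand in a red block with Cyp51, Msmo1, Ebp, Srebf2 and Insig1, and Sc5d, Nsdhl and Sqle in another with Hsd17b7. The right panel leaves out every growth factor array as well as the 4 controls. There the block of Idi1 and Lss is thinner, and Lss keeps r = 0.83 with Srebf2.

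Genes outside the 7 were ranked in the same way. Out of 14323 other genes, the one closest to Lss was Srebf2 (r = 0.91, rho = 0.87, and 0.89 without 2 arrays), the gene of the factor that drives the pathway, and the one closest to Idi1 was Cyp51 (r = 0.86, rho = 0.86, and 0.82 without 2). The next for Lss was Map2k3 (r = 0.89). The closest genes to the other enzymes lay outside the pathway: Vps45 for Nsdhl (r = 0.86), Golt1b for Sc5d (0.83), Plod3 for Mvd (0.83), Cdk5 for Sqle (0.79) and Aimp2 for Fdft1 (0.78). For Lss the 95th percentile of r over all genes was 0.623, and for Idi1 0.496. Among the closest enzyme pairs, Idi1 had rank 251 for Lss, and Lss had rank 31 for Idi1. Sc5d had rank 107 and Sqle rank 163 for Nsdhl, while Nsdhl had rank 56 for Sc5d and 33 for Sqle. Msmo1 had r = 0.76 with Lss (rank 104) and 0.77 with Idi1 (rank 10), and Insig1 0.70 (rank 315) and 0.74 (rank 16). Sqle had r = 0.67 with Hsd17b7 (rank 15) and 0.60 with Tm7sf2 (rank 56), enzymes of late ring reactions, and Hsd17b7 had r = -0.47 with Lss. Mvd and Fdft1 had r = 0.43 with each other and at most 0.35 with the other 5 enzymes. The genes most like the mean standardised level of the 7 were Emg1 (r = 0.77), Acat2 (0.74), Mpi (0.74), Copz1 (0.74) and Serf2 (0.71), of which Acat2 alone is a gene of the pathway.

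A few arrays stood apart in some of these genes. Among the 14 untreated controls Lss fell into 2 ranges, at 7.43 to 7.53 in controls 1, 9, 10 and 11 and at 6.88 to 7.20 in the other 10. The 4 were picked by their Lss, so genes correlated with Lss in these controls stand high in them as well, which is no separate result. Across the 14 controls r with Lss was 0.96 for Srebf2 and Cyp51, 0.82 for Idi1, 0.72 for Ebp and 0.71 for Msmo1. The same 4 controls had the 4 highest levels of Idi1 (8.36 to 8.98, others up to 8.21), Cyp51 (9.08 to 9.20, others up to 8.85), Msmo1 (9.78 to 10.14, others up to 9.75), Ebp (7.06 to 7.33, others up to 6.98) and Srebf2 (8.31 to 8.62, others up to 8.07). That order was shared by 0.874% of all probe sets, which were not selected for their r with Lss. Mvd, Fdft1, Sqle, Nsdhl and Sc5d did not follow it, and for Nsdhl and Sc5d controls 1 and 9 were the 2 lowest (8.33 and 8.13 for Nsdhl, 8.12 and 8.18 for Sc5d) and control 10 among the highest. Within the other 10 controls Lss kept r = 0.83 with Srebf2 (rho = 0.88, and 0.83 without 2) and 0.86 with Cyp51 (rho = 0.76), while Idi1 and Lss had r = 0.54 (rho = 0.44) and Lss and Msmo1 -0.09. Nsdhl and Sc5d had r = 0.47 there, and 0.02 without 2 arrays, and Sc5d and Hsd17b7 0.06. Mvd stood closer to Lss in these 10 (r = 0.70, the highest of the 21 pairs there), and had 0.78 with Cyp51 and 0.52 with Idi1. The growth factor arrays alone hold none of the controls. Over them r with Lss was 0.92 for Srebf2, 0.70 for Cyp51, 0.67 for Idi1, 0.79 for Msmo1 and 0.33 for Mvd. Nsdhl and Sc5d had r = 0.55 over those arrays, and Sc5d and Hsd17b7 0.73. Over the 38 arrays, Lss lay over 0.2 above its group mean in 9, and within the other 29 its r was 0.68 with Srebf2, 0.60 with Cyp51 and 0.35 with Idi1. Within the 9 its r with Srebf2 was 0.56 (rho = 0.12), and -0.66 without 2 arrays. This split was made on Lss itself, and a narrower range of Lss lowers r in either part. It therefore cannot show whether the relation rested on the 9 arrays. In the CTGF set array 1 of both groups was the high one for Lss and Idi1, and their r of 0.94 over 6 arrays was 0.41 without the 2 farthest.

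**Figure D5:**
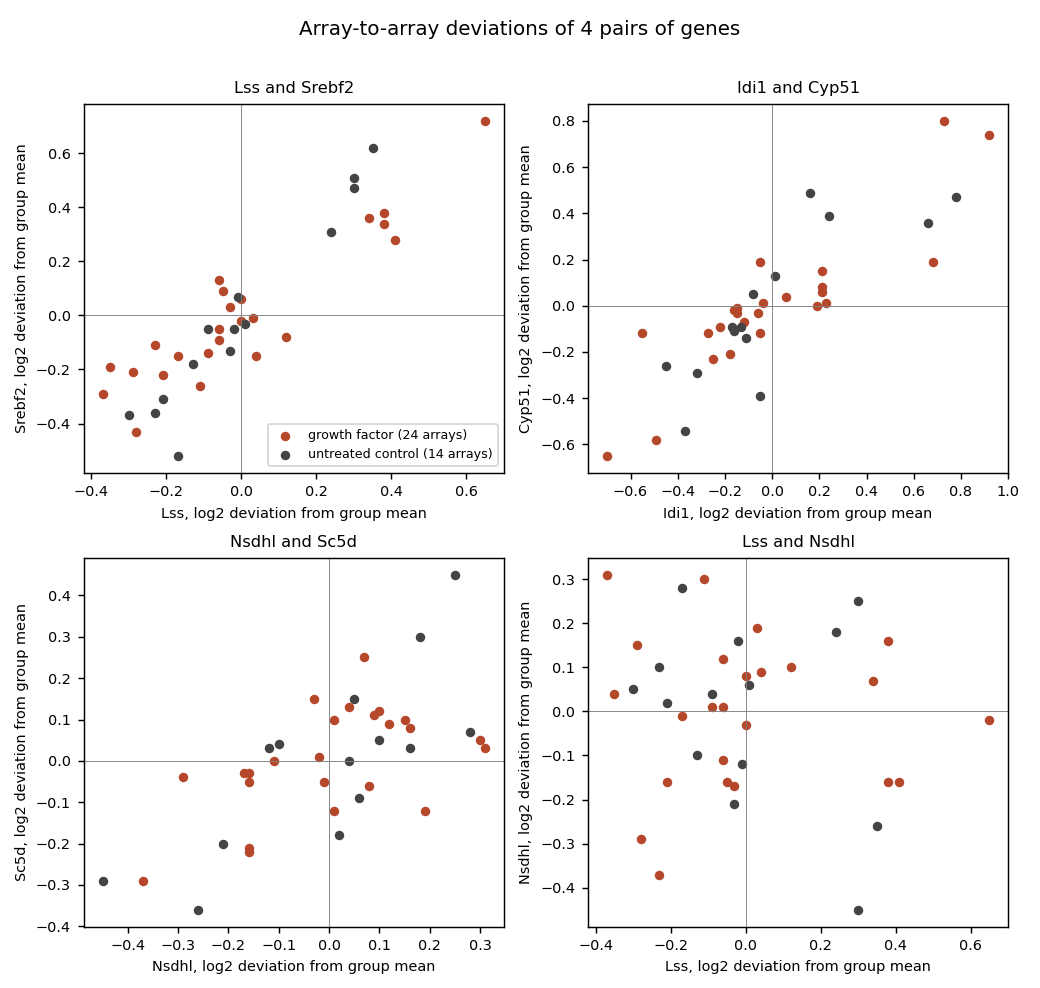
Deviation of each array from its group mean (log2 on both axes) for 4 pairs of genes, growth factor arrays in red and the 14 untreated controls in grey. Lss and Srebf2 lie along a line with 9 arrays set apart at the upper right, Idi1 and Cyp51 form a line, and Lss and Nsdhl (lower right) show no line.

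Some of these genes were correlated with main axes of variation among the arrays. The second main axis of variation among the 38 arrays after removal of group means, with 20.2% of the variance, had an absolute correlation of 0.69 with Lss and 0.72 with Srebf2, and the third axis, with 8.7%, one of 0.70 with Nsdhl and 0.63 with Sc5d. On the second axis Idi1 had 0.49 and Cyp51 0.46. The first axis, with 24.7% of the variance, had 0.46 with Lss, 0.43 with Srebf2 and 0.66 with Msmo1. The share of all probe sets that followed an axis as closely is not given. The part of these axes in the correlations was not tested.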

How the data were processed

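RNA of cultured rat ovaries was hybridised to Affymetrix Rat Gene ST arrays, 38 in a first set and 6 in the CTGF set. Per the study's methods, the authors summarised each set separately by RMA with GC adjustment in Partek and deposited log2 values of 27342 probe sets, so that no comparison crosses the sets. No counts exist, and the number of arrays limits the precision. RMA shrinks differences of dim probe sets. Of the probe sets 15097 carried 1 gene symbol, 323 several and 11922 none, and those with several were not named. Where a gene had several probe sets, the brightest over the 38 arrays was used, and each of the 7 enzymes had 1.

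Comparisons used limma 3.58.1 in R 4.3.3 (lmFit and eBayes, 1 coefficient a group, all arrays of a set), with Benjamini-Hochberg adjustment over all probe sets. Exact permutation tests used scipy 1.17.1. The steps were tested on simulated data. Replicates were separate wells, and wells may share a litter, so that p-values measure the spread between these samples. For GDNF the labels give 3 samples, all used, although the study's text gives fewer. The members and lists were chosen with earlier results of these data known. Full statistics are given for the 2 enzymes with the largest difference in each comparison. Named beside them were listed genes past the threshold, pathway and sterol-sensing genes fixed by name, some of which are not reported here, and the 5 genes most like the enzymes' mean. Acat2, Ebp, Hsd17b7, Tm7sf2, the markers named with PDGFab and the genes closest to single enzymes were named after their values were seen. The replicate numbers of the CTGF set paired its samples (r = 0.842, 0.623 and 0.647 between deviations of same-numbered arrays, each over 0.1). Those of the 38 arrays did not as a set (r from -0.555 to 0.74). Array 1 of FGF2, LIF and KITLG did correlate best with control 1.

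Alternatives were fitting the treated arrays and controls alone, a replicate block, array weights, and robust eBayes with an intensity trend. Others were quantile normalization repeated within a set, centring on array medians, and leaving out probe sets below the median level. The rest were leaving out controls 12, 13 and 14, leaving out single treated arrays, and the methods' t-test. In the CTGF set single controls were left out as well. Promoters came from RefSeq on GRCr8, and both strands were searched.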

Additional observations from a re-analysis of the deposited data

Results flagged for a closer look

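Of 196 tests of an enzyme between growth factors, the difference in Lss between GDNF and PDGFab ovaries was the one that passed the adjusted threshold. GDNF arrays averaged 6.93 and PDGFab arrays 7.72, a difference of -0.79 (adjusted p = 0.0422, limma), in opposite directions from the shared controls (7.18). The adjusted p ran from 0.00239 with array weights to 0.199 without PDGFab array 1. No other result was singled out, since groups of 3 or of 14 arrays were not examined for single outlying samples.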

How the results depend on the processing

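Of the counts and medians for whole comparisons, 204 values under alternatives kept to the reported ones and 19 moved, and single genes gained or lost a call or changed sign in 27 of 255 values. Of 85 counts under the study's criteria or of pathway enzymes, 14 moved. The size of a single gene's difference was not judged in these tallies. Lss with FGF2, 0.34 in the reported fit, was 0.01 without array 1 and counted as kept. As 0 enzymes were called against controls, a count of calls could move only through a gained call. With the replicate block, which leaves controls 1, 2 and 3 as the controls, Mvd alone was called with FGF2 (1 enzyme, 0.80, adjusted p = 0.00479), FGF7 (1, 0.60, 0.0266), GDNF (1, 0.44, 0.0333) and PDGFab (1, 0.67, 0.0259), and across the 8 factors (1, 0.0181), and the medians were 0.00 with BMP4, 0.16 with FGF7 and 0.08 with KITLG. The replicate numbers do not pair these samples as a set (r from -0.555 to 0.74 between same-numbered arrays). Mvd in controls 1 to 3 measured 6.74, 6.36 and 6.63, all below the mean of the 14. In the CTGF set the block gave 0 calls. With array weights 2 enzymes were called with PDGFab (Lss and Sc5d) and 1 across the 8 factors (Lss, adjusted p = 0.0149), and the BMP4 median was -0.17. Without controls 12, 13 and 14, 1 enzyme was called with FGF2 (Mvd, adjusted p = 0.0447), and the medians were -0.14 with BMP4 and -0.03 with KITLG. Leaving out single treated arrays, or single controls of the CTGF set, gave 0 calls of an enzyme against controls. Medians then ran from 0.05 to 0.26 with FGF2, 0.00 to 0.07 with KITLG and -0.04 to 0.06 with CTGF. Single controls among the 14 were not left out. Idi1 with FGF7 ran from -0.04 to 0.57, and Mvd with GDNF from -0.02 to 0.26, the low ends without array 3. The cause of these shifts was not tested, beyond the smaller sets of samples. The methods' t-test at the study's limits counted 1 enzyme with AMH, FGF2 and KITLG, 3 with PDGFab and 0 elsewhere, and after Benjamini-Hochberg 0 everywhere. A second probe set of an enzyme could not be tried, as none had one.

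With 3 arrays a group, 95% intervals of a single enzyme against the 14 controls were 0.45 to 1.04 log2 units wide from end to end. Results for Hmgcs1 and Fdps are not given.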
